A study of Homo sapiens with 12 samples.

Results

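The genotype by LPS interaction asks, for each gene, whether lipopolysaccharide (LPS) moved its RNA level by the same factor in MEF2C knockout (KO) and in wild-type (WT) microglia-like cells. It was computed as the LPS response of KO cells (KO LPS over KO) minus the LPS response of WT cells (WT LPS over WT) on the log2 scale, so a positive value means that the KO response was the higher one. The contrast used 10 of the 12 libraries of the study, with 2 KO LPS, 3 KO, 2 WT LPS and 3 WT libraries. The difference was called in 1920 of the 16022 genes tested (12%). The response was smaller in KO cells for 1742 of these genes, larger for 136, and in opposite directions in the 2 genotypes for 37.

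The cells were induced microglia-like cells derived from the established human pluripotent stem cell line H1, and the RNA of each sample was sequenced as 1 library. KO LPS and WT LPS cells were treated with LPS, and KO and WT cells were their vehicle controls. The 2 remaining libraries, KO cells given LPS together with BMS265246, entered the fit to estimate the spread and are not described. Not given in the sources used here are the type of edit, how many clones the KO cells came from, and the dose and duration of LPS. The labels call the libraries biological replicates without naming separate differentiations or clones, so p-values measure the spread between these libraries.

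LPS is a component of the outer membrane of Gram-negative bacteria. Microglia and other macrophages sense it through TLR4, which activates NF-kB and MAP kinases to induce cytokines and chemokines and, through IRF3 and interferon beta, interferon-stimulated genes. MEF2C is a transcription factor of the MADS-box family that is expressed in microglia and is known there to restrain inflammatory responses.

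Libraries held 13888283 to 17639136 counts, and levels are given in CPM, a share of the library total after TMM scaling in edgeR. In the 10 libraries the limit behind a count of 0 (3 counts) was 0.154 to 0.205 CPM, for counting error only. The 2 KO LPS libraries differed from each other more than any other pair of replicates, with a chi-square per degree of freedom of 11.1, against 2.05 to 6.88 in the other pairs. Leaving out KO LPS replicate 1 gave 3079 called genes, and leaving out KO LPS replicate 2 gave 1162. Leaving out WT LPS replicate 2 gave 1212, and leaving out each of the other 7 libraries gave 1346 to 2076. Unless another setting is named, adjusted p-values below come from edgeR's quasi-likelihood F test with Benjamini-Hochberg adjustment over the 16022 genes. A gene was called at an adjusted p under 0.05.

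MEF2C was read in every library. Its level was 45.9 and 46.8 CPM in KO LPS libraries and 136, 129 and 135 CPM in KO libraries, against 49.6 and 51.6 CPM in WT LPS libraries and 193, 183 and 177 CPM in WT libraries. KO libraries thus lay below every WT library, but transcript was still counted in them, and RNA counts do not show whether protein was made. LPS lowered MEF2C RNA by a log2 change of -1.52 ± 0.06 (standard error, SE) in KO cells and -1.86 ± 0.06 in WT cells, a difference of 0.34 ± 0.09 (adjusted p = 0.0124).

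Of the 10 microglial markers checked, 9 were tested and SALL1, a microglial transcription factor, was not. Their summed level was 3593 to 3815 CPM in KO LPS libraries and 4066 to 4161 CPM in KO libraries, against 3739 to 4055 CPM in WT LPS libraries and 4394 to 4552 CPM in WT libraries. P2RY12, the purinergic receptor that defines homeostatic microglia, was low, at 1.93 and 1.78 CPM in KO LPS libraries and 12.5, 11.7 and 10.7 CPM in KO libraries, against 1.93 and 1.69 CPM in WT LPS libraries and 15.3, 13.2 and 16.6 CPM in WT libraries. All 18 markers of monocytes and border macrophages were read, and their sum was higher in KO cells, at 7104 to 7351 CPM in KO LPS libraries and 7124 to 7240 CPM in KO libraries, against 4915 to 4996 CPM in WT LPS libraries and 4844 to 4975 CPM in WT libraries. The summed level therefore moved with genotype, and its part in the results was not tested. Of 10 neuronal markers 2 were tested, summing to 1.93 to 2.05 CPM in KO LPS libraries and 1.34 to 1.93 CPM in KO libraries, against 1.53 to 2.38 CPM in WT LPS libraries and 1.65 to 2.52 CPM in WT libraries. The 8 tested of 10 endothelial markers, some of which myeloid cells also express, summed to 763 to 840 CPM in KO LPS libraries and 1367 to 1445 CPM in KO libraries, against 640 to 687 CPM in WT LPS libraries and 1386 to 1445 CPM in WT libraries, so they moved with LPS. In bulk RNA, fewer cells of a type and less RNA per cell cannot be told apart.

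LPS moved fewer genes in KO cells than in WT cells, and genes with large responses moved less in KO cells. LPS called 7182 genes in KO cells (44.8%), of which 3928 (24.5%) rose and 3254 (20.3%) fell, and 9560 genes in WT cells (59.7%), of which 4628 (28.9%) rose and 4932 (30.8%) fell. Across the 16022 genes, the KO and WT responses, which share no library, correlated with a Pearson r of 0.84, where genes are not independent replicates. Among 1209 genes whose mean response was at least a doubling (log2 of 1), the median rise was 1.57 in KO cells and 1.82 in WT cells, and 835 (69.1%) rose less in KO cells. Among 1395 genes whose mean response was at least a halving, the median fall was -1.09 in KO cells and -1.64 in WT cells, and 1167 (83.7%) fell less in KO cells. Library by library, the median of the rising genes was 1.46 and 1.53 in KO LPS libraries, against 1.70 and 1.74 in WT LPS libraries. The median of the falling genes was -1.09 and -0.96 in KO LPS libraries, against -1.48 and -1.50 in WT LPS libraries. Both KO LPS libraries thus lay closer to 0 than both WT LPS libraries, for rising and for falling genes.

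**Figure D1:**
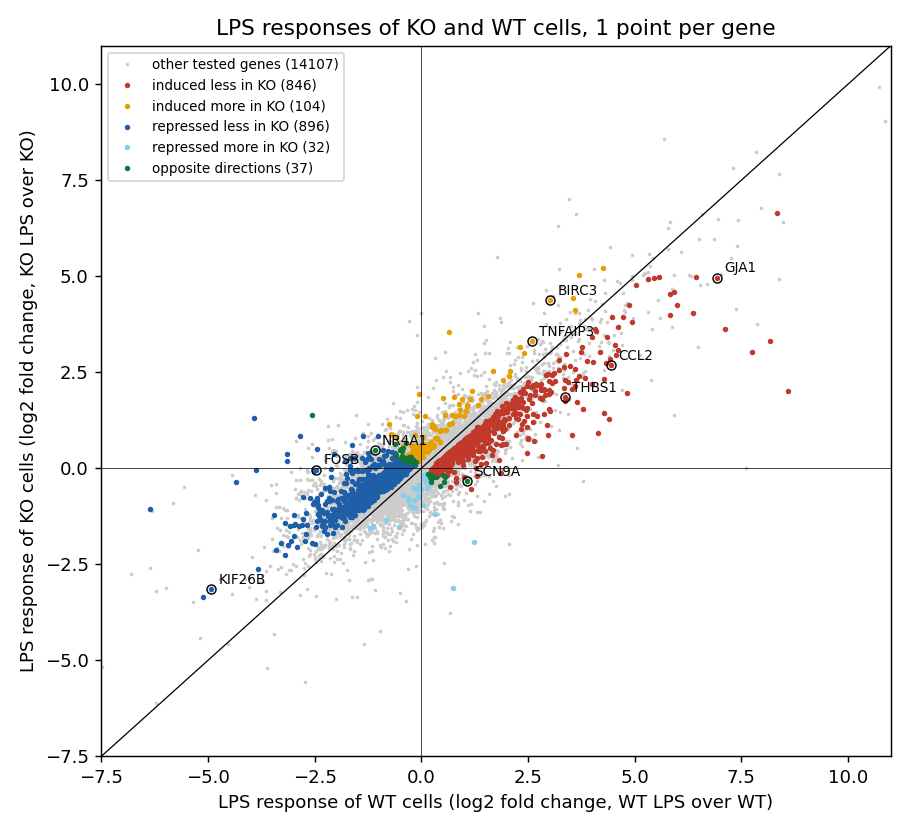
LPS response of each gene in KO cells (vertical axis, log2 fold change of KO LPS over KO) against its response in WT cells (horizontal axis, log2 fold change of WT LPS over WT), with called genes coloured by response class and the diagonal marking equal responses. Genes induced less (846) lie below the diagonal on the right and genes repressed less (896) lie above it on the left, and the 37 genes with opposite responses lie in the upper left and lower right quadrants.

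**Figure D2:**
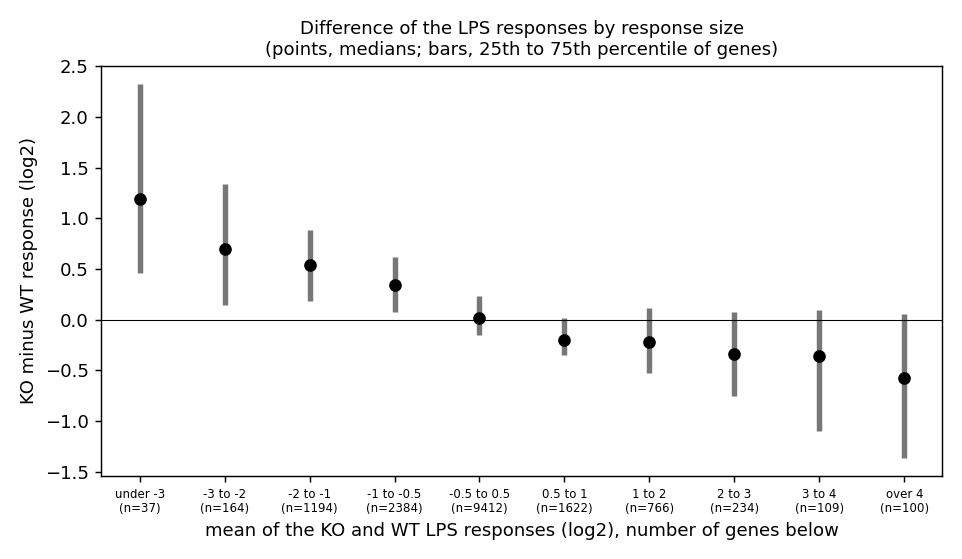
Difference of the LPS responses (KO minus WT, log2) for genes binned by the mean of their KO and WT responses (log2), with medians as points and the 25th to 75th percentile of genes as bars. The median was 1.19 among the 37 genes below -3, 0.02 among the 9412 genes between -0.5 and 0.5, and -0.57 among the 100 genes above 4.

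The difference of the responses was called in 12% of all genes tested, 6.42% with a higher KO response (1028) and 5.57% with a lower one (892). It was at least 2-fold in 237 genes (1.48%), 143 higher (0.893%) and 94 lower (0.587%) in KO cells. An unadjusted p under 0.05 was found in 4173 genes (26%). Over all tested genes its median was 0.05, and the 5th and 95th percentiles were -0.67 and 0.99. The split of the calls by sign depended on the scaling, with 53.5% of calls higher in KO cells under TMM over all libraries, 65.3% under library size alone, 45.6% under DESeq2 and 42.4% with TMM over only the 10 libraries of the 4 groups. In 4094 genes (25.6%) every KO pair of libraries gave a response above, or every one below, all WT pairs, and 1908 of those genes (11.9% of all tested) were called.

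Classified by direction of the responses, 846 genes (5.28%) were induced less in KO cells, with a median response of 0.50 in KO cells and 0.94 in WT cells. The 896 genes (5.59%) repressed less had median responses of -0.42 in KO cells and -1.05 in WT cells. The 104 genes (0.649%) induced more had medians of 0.78 in KO cells and 0.21 in WT cells, and the 32 genes (0.2%) repressed more had -0.71 in KO cells and -0.06 in WT cells. The 37 genes with opposite responses were 0.231% of those tested, and in 5 called genes (0.0312%) neither response was called. A different response can stand on a difference before LPS, after LPS or both, and the 2 differences share their libraries with the interaction. Genes induced less had a median KO LPS minus WT LPS difference of -0.34 and a median KO minus WT difference of 0.07. Genes induced more had medians of 0.21 with LPS and -0.27 without it, and genes repressed less had 0.49 with LPS and -0.10 without it.

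Among the NF-kB subunits and feedback inhibitors, 4 of 28 tested members had a higher LPS response in KO cells and none a lower one, with a median difference of 0.12, against 0.05 over all genes. Calls made up 14.3% of this list, near the 12% found over all genes, of which 6.42% were higher and 5.57% lower in KO cells. The 4 called members were TNFAIP3, BIRC3, NFKBIA and NFKB2. The count was 7 without WT LPS replicate 1 and 9 without KO LPS replicate 1, where 1 member was also called lower, and 7 with no filter on low counts. TNFAIP3 encodes A20, a ubiquitin-editing enzyme that ends NF-kB signalling, and it stood at 775 and 797 CPM in KO LPS libraries and 76.0, 80.5 and 81.5 CPM in KO libraries, against 849 and 862 CPM in WT LPS libraries and 143, 142 and 143 CPM in WT libraries. KO libraries lay below WT libraries under both conditions, by a wider margin without LPS (log2 difference -0.85) than with it (-0.12). Its response was 3.31 ± 0.05 in KO cells and 2.58 ± 0.05 in WT cells (difference 0.72 ± 0.07, adjusted p = 5.22e-07). BIRC3, a ubiquitin ligase of the TNF receptor complex, showed the same arrangement, with 104 and 98.3 CPM in KO LPS libraries and 3.81, 5.59 and 5.11 CPM in KO libraries, against 110 and 126 CPM in WT LPS libraries and 15.1, 14.6 and 13.7 CPM in WT libraries. Its response was 4.38 ± 0.10 in KO cells and 3.03 ± 0.09 in WT cells (difference 1.35 ± 0.14, adjusted p = 2.25e-06). NFKBIA, the inhibitor that holds NF-kB in the cytoplasm, differed by 0.47 ± 0.08 (adjusted p = 0.000791), and NFKB2, the p100 subunit, by 0.58 ± 0.12 (adjusted p = 0.00573), a call lost without WT LPS replicate 2.

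The start-site windows of TNFAIP3, BIRC3 and NFKBIA are shown because all 3 held an NF-kB motif and all 3 were induced more in KO cells. RefSeq (GRCh38.p14) gave exactly 1 window, from 250 bases before the start to 50 bases after it, for 8114 of the 16022 tested genes, and NFKB2 was among the genes without one. The windows lie at chr6:137867009-137867308 on the plus strand (TNFAIP3), chr11:102317234-102317533 on the plus strand (BIRC3) and chr14:35404700-35404999 on the minus strand (NFKBIA), and capitals mark matches to an NF-kB motif (GGG, any 2 bases, TTTCC) on either strand.
TNFAIP3: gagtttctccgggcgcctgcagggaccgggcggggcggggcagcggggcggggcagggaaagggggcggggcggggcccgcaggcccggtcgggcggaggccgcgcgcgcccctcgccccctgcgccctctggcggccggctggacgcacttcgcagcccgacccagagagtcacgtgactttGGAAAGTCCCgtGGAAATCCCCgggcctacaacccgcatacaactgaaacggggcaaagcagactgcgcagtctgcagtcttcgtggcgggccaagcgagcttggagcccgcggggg
BIRC3: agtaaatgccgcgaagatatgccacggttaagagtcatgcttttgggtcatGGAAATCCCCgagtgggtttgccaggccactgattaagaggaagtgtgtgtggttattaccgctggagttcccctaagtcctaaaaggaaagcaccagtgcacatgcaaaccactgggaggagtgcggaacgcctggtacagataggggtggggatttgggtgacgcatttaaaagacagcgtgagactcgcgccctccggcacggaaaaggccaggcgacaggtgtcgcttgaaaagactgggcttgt
NFKBIA: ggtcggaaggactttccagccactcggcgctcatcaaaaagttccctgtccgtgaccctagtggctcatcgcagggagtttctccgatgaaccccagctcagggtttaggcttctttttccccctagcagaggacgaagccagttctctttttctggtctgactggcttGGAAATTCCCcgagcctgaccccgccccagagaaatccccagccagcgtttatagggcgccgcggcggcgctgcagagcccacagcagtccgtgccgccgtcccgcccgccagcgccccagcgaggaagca
TNFAIP3 held 2 matches, at -67 to -58 and -55 to -46 from the start site, BIRC3 held 1 at -199 to -190 and NFKBIA 1 at -81 to -72. Over all windows 190 of 8114 (2.34%) held the motif, against 6 of 48 (12.5%) of the genes induced more, 15 of 465 (3.23%) of the genes induced less and 9 of 438 (2.05%) of the genes repressed less. In the NF-kB list 4 of 12 windows held it. Both the 6 windows and these 4 include the 3 shown, which were picked for their motif and class, so the shares are not separate evidence. A match describes letters in the window, not binding.

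Of 19 pro-inflammatory cytokines, 3 responded more in KO cells (TNF, TNFSF15 and LIF) and none less, and the other 16 were not called. The share called was 15.8%, near the 12% of all genes tested, and the median difference was 0.11, against 0.05 over all genes. DESeq2, no filter and the 10 libraries of the 4 groups each called 1 member lower, as did leaving out WT replicate 2, KO replicate 2 or KO LPS replicate 1. TNF, the founding member of its cytokine family, was at 44.1 and 48.7 CPM in KO LPS libraries and 4.19, 5.59 and 5.75 CPM in KO libraries, against 37.2 and 30.6 CPM in WT LPS libraries and 6.32, 7.93 and 6.33 CPM in WT libraries. KO LPS libraries lay above both WT LPS libraries and KO libraries below all WT libraries. Responses of 3.15 ± 0.13 in KO cells and 2.30 ± 0.13 in WT cells differed by 0.85 ± 0.19 (adjusted p = 0.00484). TNFSF15, a cytokine of the same family, reached 170 and 159 CPM in KO LPS libraries and 27.7, 28.3 and 28.7 CPM in KO libraries, against 98.8 and 105 CPM in WT LPS libraries and 30.2, 36.8 and 29.1 CPM in WT libraries, a difference of responses of 0.87 ± 0.12 (adjusted p = 3.36e-05). LIF rose in KO cells (0.40 ± 0.09, adjusted p = 0.00076), while its response in WT cells was -0.19 ± 0.09 (adjusted p = 0.0838).

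IL1B and IL6 rose strongly in both genotypes, with no called difference. IL1B, the secreted product of inflammasome activation, was at 4689 and 4612 CPM in KO LPS libraries and 130, 118 and 117 CPM in KO libraries, against 4854 and 4573 CPM in WT LPS libraries and 118, 121 and 108 CPM in WT libraries. The groups overlapped at both conditions. The difference of the responses was -0.10 ± 0.08 (adjusted p = 0.477). IL6 was higher in KO cells at both conditions, with 257 and 247 CPM in KO LPS libraries and 3.03, 2.91 and 2.47 CPM in KO libraries, against 156 and 135 CPM in WT LPS libraries and 1.24, 1.34 and 0.927 CPM in WT libraries. Its responses of 6.49 ± 0.10 in KO cells and 6.95 ± 0.11 in WT cells differed by -0.46 ± 0.20, which was not called (adjusted p = 0.143).

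**Figure D3:**
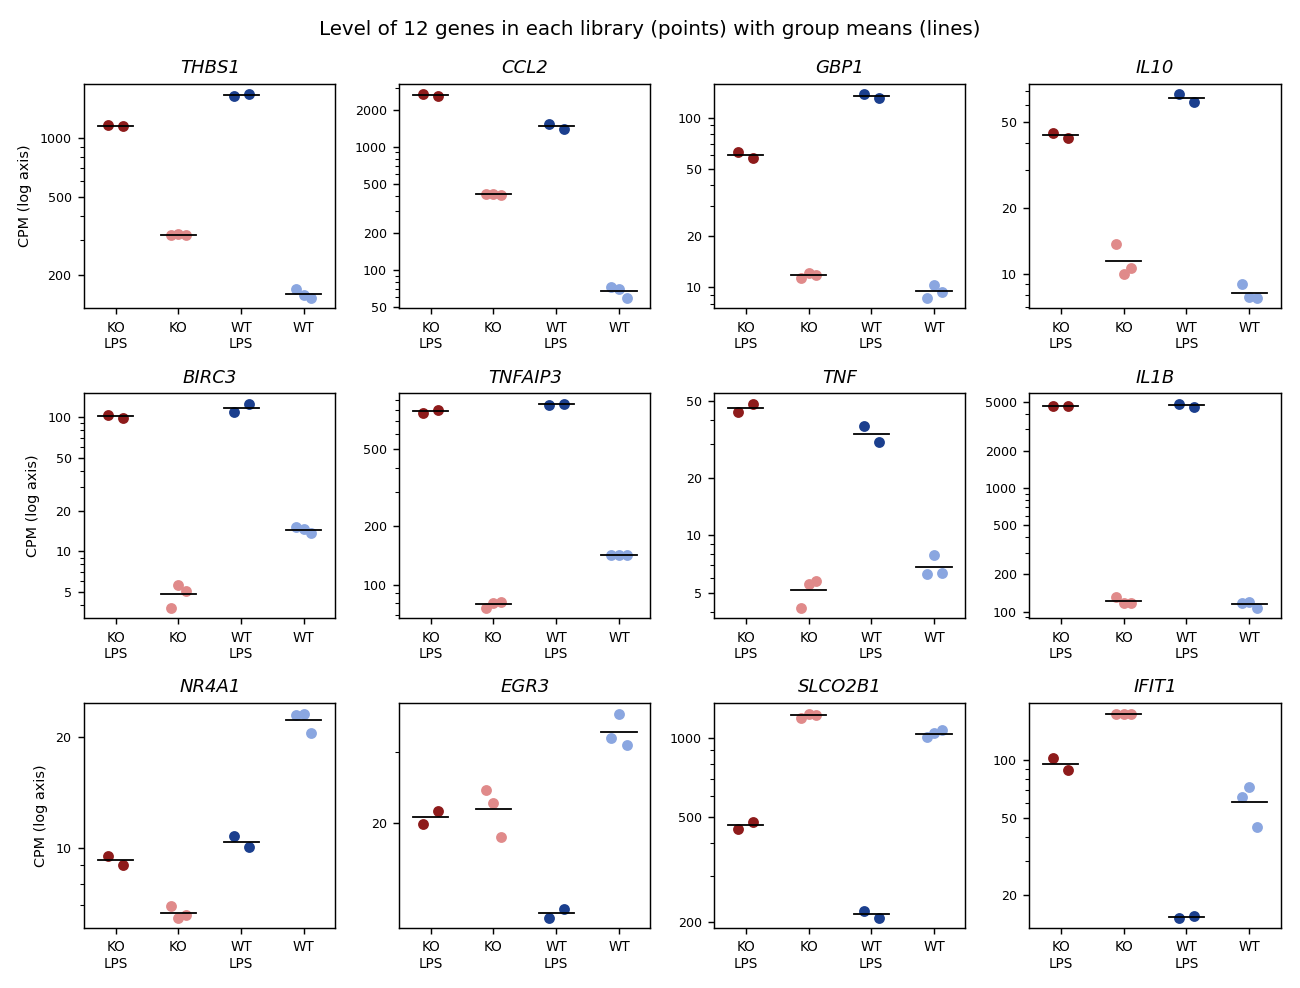
Level in CPM (log axis) of 12 genes in each library, with points for libraries and lines for group means, in the order KO LPS, KO, WT LPS and WT. For BIRC3 and TNFAIP3 the LPS libraries of both genotypes lie close together and the KO libraries lie below the WT libraries, for CCL2 both KO groups lie above the matching WT groups, and for NR4A1 the KO LPS libraries lie above the KO libraries while the WT LPS libraries lie below the WT libraries.

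Of 25 chemokines, 24% were called, against 12% of all genes tested (6.42% higher and 5.57% lower). A lower response in KO cells was found for 5 (CCL2, CCL22, CXCL1, CXCL8 and CCL5) and a higher one for 1 (CCL17). The median difference was 0.04. The higher count was 2 under DESeq2, with the 10 libraries or without WT replicate 3, 3 with no filter or without KO LPS replicate 1, and 4 without WT LPS replicate 1. CCL5 was not called without KO replicate 1 or WT LPS replicate 1, and CCL17, below 3 CPM in all 10 libraries, was not called without KO LPS replicate 2. CCL2, the main attractant of CCR2-bearing monocytes, was at 2686 and 2599 CPM in KO LPS libraries and 415, 415 and 404 CPM in KO libraries, against 1529 and 1401 CPM in WT LPS libraries and 72.1, 70.0 and 59.3 CPM in WT libraries. It was thus higher in KO cells under both conditions. It rose by 2.68 ± 0.06 in KO cells and by 4.45 ± 0.07 in WT cells (difference -1.76 ± 0.09, adjusted p = 5.47e-10). CXCL8, the neutrophil attractant interleukin-8, differed by -0.38 ± 0.09 (adjusted p = 0.0118) and was not called without WT LPS replicate 2 or without KO LPS replicate 2. CCL22, which attracts CCR4-bearing T cells, started alike and ended lower, with 214 and 202 CPM in KO LPS libraries and 60.5, 60.4 and 67.0 CPM in KO libraries, against 321 and 309 CPM in WT LPS libraries and 58.3, 68.7 and 54.0 CPM in WT libraries (difference -0.66 ± 0.11, adjusted p = 0.000443). CXCL10, an interferon-induced attractant of T cells, had a positive but uncalled difference of 1.69 ± 0.72 (adjusted p = 0.185).

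Of 20 chemoattractant receptors, 35% were called, against 12% of all genes tested. A lower response in KO cells was found for 6 (among them FPR2, FPR1 and CCR7) and a higher one for 1 (CX3CR1). The median difference was -0.07. CX3CR1 was not called under DESeq2 (adjusted p = 0.11), with no filter (adjusted p = 0.0691) or with the 10 libraries (adjusted p = 0.0932), nor without any 1 of 8 libraries. Under library size alone 2 members were called higher. CCR7, which guides maturing antigen-presenting cells to lymph nodes, was at 3.81 and 4.99 CPM in KO LPS libraries and 1.55, 1.45 and 0.967 CPM in KO libraries, against 32.3 and 29.1 CPM in WT LPS libraries and 2.59, 2.98 and 1.80 CPM in WT libraries. Both KO LPS libraries lay below both WT LPS libraries. Responses of 1.74 ± 0.24 in KO cells and 3.64 ± 0.16 in WT cells differed by -1.90 ± 0.31 (adjusted p = 0.000307). FPR2, a receptor of formylated and other peptides, started high in KO cells, with 177 and 169 CPM in KO LPS libraries and 27.1, 26.7 and 23.9 CPM in KO libraries, against 104 and 106 CPM in WT LPS libraries and 5.78, 5.30 and 4.53 CPM in WT libraries (difference -1.59 ± 0.12, adjusted p = 1.06e-08).

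Of 21 co-stimulation and dendritic maturation genes, 7 (33.3%, against 5.57% of all genes tested) had a lower LPS response in KO cells and none a higher one. The median difference was -0.26, from median responses of 1.74 in KO cells and 2.39 in WT cells. Among all tested genes with a mean response from 2 to 3 the median difference was -0.34. Without KO LPS replicate 1, 2 members were called higher, and 1 was under DESeq2, under library size alone, with no filter, or without WT replicate 1 or WT LPS replicate 1. The 7 lower genes were SLAMF1, CD83, CD80, LAMP3 and SLAMF7, besides CCR7 and CCL22, which the chemoattractant lists also hold. SLAMF7 lost its call under library size alone (adjusted p = 0.107). It also lost it without any 1 of 7 libraries, that is all but WT replicate 1, KO replicate 2 and KO LPS replicate 1. The 8 tested of 11 dendritic cell markers, which also moved with genotype and LPS, summed to 197 to 215 CPM in KO LPS libraries and 178 to 181 CPM in KO libraries, against 227 to 255 CPM in WT LPS libraries and 341 to 360 CPM in WT libraries. Of these markers 3 (37.5%, against 6.42% of all genes tested) had a higher response in KO cells (CLEC10A, CD1C and ZBTB46) and none a lower one. Their part in the co-stimulation result was not tested. SLAMF1, a self-binding receptor that takes part in TLR4 signalling in human macrophages, was at 91.3 and 93.7 CPM in KO LPS libraries and 11.6, 12.5 and 11.9 CPM in KO libraries, against 207 and 210 CPM in WT LPS libraries and 8.05, 9.32 and 9.06 CPM in WT libraries. It was higher in KO cells without LPS and lower in KO cells with it. Responses of 2.94 ± 0.07 in KO cells and 4.56 ± 0.07 in WT cells differed by -1.62 ± 0.11 (adjusted p = 2.72e-09). LAMP3, a lysosomal membrane protein of mature dendritic cells, was lower in KO cells at both conditions, with 64.4 and 69.6 CPM in KO LPS libraries and 4.84, 5.31 and 5.48 CPM in KO libraries, against 422 and 418 CPM in WT LPS libraries and 18.9, 19.9 and 12.9 CPM in WT libraries. Its difference was -0.93 ± 0.20 (adjusted p = 0.0103) and was not called without WT LPS replicate 2. CD80, a ligand of CD28 on T cells, differed by -0.79 ± 0.14 (adjusted p = 0.000538), and CD83, a marker of mature dendritic cells, by -0.51 ± 0.08 (adjusted p = 0.000286).

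Among genes induced less with non-overlapping responses, at least 5 CPM in the highest group and at least 0.5 CPM in the lowest, the largest differences were those of SLC16A7 (-2.25 ± 0.24), GJA1 (-1.98 ± 0.18), PLS3, an actin-bundling protein (-1.92 ± 0.16), CCR7 and the matrix proteoglycan VCAN (-1.84 ± 0.19). GJA1 encodes connexin 43, the gap-junction protein, and it was at 71.3 and 74.4 CPM in KO LPS libraries and 2.45, 2.68 and 1.88 CPM in KO libraries, against 251 and 257 CPM in WT LPS libraries and 2.11, 2.11 and 1.96 CPM in WT libraries. It was similar without LPS and lower in both KO LPS libraries. SLC16A7, a monocarboxylate transporter, was at 13.9 and 11.6 CPM in KO LPS libraries and 5.16, 3.75 and 4.25 CPM in KO libraries, against 22.1 and 25.8 CPM in WT LPS libraries and 2.00, 1.80 and 1.34 CPM in WT libraries. THBS1, the matricellular protein thrombospondin-1 and an activator of TGF-beta, had the lowest adjusted p of the matrix list. In that list 7 of 33 members had a lower response and 2 a higher one. Calls made up 27.3% of it, against 12% of all genes tested (6.42% higher and 5.57% lower). Higher calls numbered 5 without KO LPS replicate 1, 4 under library size alone or without WT LPS replicate 1 and 1 without each of the other libraries but KO LPS replicate 2. THBS1 was at 1157 and 1143 CPM in KO LPS libraries and 319, 323 and 318 CPM in KO libraries, against 1640 and 1674 CPM in WT LPS libraries and 169, 159 and 152 CPM in WT libraries. The genotypes changed places between the conditions. Responses of 1.85 ± 0.05 in KO cells and 3.37 ± 0.05 in WT cells differed by -1.53 ± 0.07 (adjusted p = 9.18e-12).

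Markers of monocytes and border macrophages differed in both directions, with 4 of 18 higher, 7 lower and a median difference of -0.23. Calls made up 61.1% of these markers, against 12% of all genes tested, and 2 were higher without WT LPS replicate 2. S100A9, an alarmin subunit of calprotectin, was at 584 and 619 CPM in KO LPS libraries and 259, 259 and 255 CPM in KO libraries, against 409 and 405 CPM in WT LPS libraries and 75.6, 76.7 and 78.0 CPM in WT libraries, and its responses differed by -1.18 ± 0.08 (adjusted p = 3.82e-09). Its partner S100A8 differed by -1.13 ± 0.12, and the related S100A12 by -1.58 ± 0.51. S100A12 was not called under library size alone or without any 1 of 7 libraries (all but KO replicate 2, WT LPS replicate 1 and KO LPS replicate 1). The mannose receptor MRC1, the scavenger receptor STAB1 and the sialic acid-binding lectin SIGLEC1 fell less in KO cells (0.46 ± 0.08, 0.64 ± 0.13 and 0.68 ± 0.14). STAB1 was not called without WT LPS replicate 2, nor SIGLEC1 without WT LPS replicate 1 or 2. The border macrophage genes did not all move this way, as CD163 (-0.42 ± 0.07, adjusted p = 0.000307) and MARCO (-0.57 ± 0.12, adjusted p = 0.004) had lower responses. VCAN and CCR2 were also lower, and FCN1 was higher. CD163, MARCO and FCN1 kept their calls when each library was left out. The 14 tested markers of granulocytes and mast cells held no call by edgeR, with 4 at an unadjusted p under 0.05 and 0 called by DESeq2. edgeR called 1 higher under library size alone or without WT replicate 3 or WT LPS replicate 1, 2 with no filter and 3 without KO LPS replicate 1.

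Among 32 genes of LPS and Toll-like receptor signalling, 25% were called, against 12% of all genes tested (6.42% higher and 5.57% lower). A lower response was found for 5 (TLR8, TLR2, TAB2, TLR1 and TBK1) and a higher one for 3 (IRF5, TRAF3 and IRAK1). The median was 0.05. The lower count was 2 without WT LPS replicate 2 or KO LPS replicate 2, and 3 without WT replicate 2, WT replicate 3, KO replicate 1 or KO replicate 3. Higher calls numbered 7 without KO LPS replicate 1 or with no filter, and 5 without WT LPS replicate 1 or under library size alone, which called 3 lower. TLR1 and TBK1 were not called under library size alone. TLR1, TBK1 and IRAK1 each lost the call without WT replicate 2, WT replicate 3, KO replicate 1, KO replicate 3, WT LPS replicate 2 or KO LPS replicate 2. TBK1 lost it also without KO replicate 2, and TAB2 without WT LPS replicate 2 or KO LPS replicate 2. TLR8, an endosomal receptor of single-stranded RNA, was at 552 and 517 CPM in KO LPS libraries and 146, 139 and 144 CPM in KO libraries, against 1139 and 1269 CPM in WT LPS libraries and 171, 157 and 159 CPM in WT libraries. Both KO LPS libraries were below both WT LPS libraries by more than the starting levels differed. Responses differed by -0.99 ± 0.08 (adjusted p = 7.15e-08). Of 22 inflammasome and pyroptosis genes, 4 had a lower response and 2 a higher one (27.3% called), with a median of 0.03. CASP1, CASP4 and CASP5, the caspases of the canonical and the LPS-sensing inflammasome, differed by -0.59 ± 0.08, -0.52 ± 0.10 and -1.33 ± 0.20, with adjusted p-values of 2.18e-05, 0.00187 and 0.000104. NLRP1, an inflammasome sensor, fell with LPS in both genotypes and fell less in KO cells (0.92 ± 0.11, adjusted p = 1.02e-05). P2RX7, of the same list, rose more in KO cells (0.39 ± 0.09, adjusted p = 0.00525).

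IL10, the main anti-inflammatory cytokine of macrophages, was at 44.8 and 42.4 CPM in KO LPS libraries and 13.7, 9.95 and 10.6 CPM in KO libraries, against 67.6 and 62.0 CPM in WT LPS libraries and 8.97, 7.77 and 7.72 CPM in WT libraries. KO cells were higher without LPS and lower with it. Responses of 1.94 ± 0.11 in KO cells and 2.99 ± 0.11 in WT cells differed by -1.05 ± 0.15 (adjusted p = 8.73e-05). In its list of anti-inflammatory and cytokine feedback genes, 7 of 28 had a higher response and 3 a lower one, with a median of 0.17. Calls made up 35.7% of the list, against 12% of all genes tested. The count of higher responses was 4 without WT LPS replicate 2. ZFP36, which destabilises cytokine transcripts such as that of TNF, moved in opposite directions, with a rise of 0.28 ± 0.08 in KO cells (adjusted p = 0.0106) and a fall of -0.37 ± 0.08 in WT cells (adjusted p = 0.000888). Its levels were 150 and 174 CPM in KO LPS libraries and 133, 140 and 128 CPM in KO libraries, against 176 and 144 CPM in WT LPS libraries and 210, 213 and 196 CPM in WT libraries, so the genotypes overlapped with LPS and did not overlap without it.

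Of 42 tested type I interferon-stimulated genes, 18 (42.9%, against 6.42% of all genes tested) had a higher response in KO cells and none a lower one. All 18 were genes repressed less. The median difference was 0.41, from median responses of -0.30 in KO cells and -0.66 in WT cells, against a median difference of 0.05 over all genes. Weaker repression in KO cells was not particular to this list. Among all tested genes the median difference was 0.34 for mean responses from -1 to -0.5, where 79.9% responded less in KO cells. It was 0.02 for mean responses from -0.5 to 0.5. The count of higher responses in the list was 9 without WT LPS replicate 2, 12 without KO LPS replicate 1, where 1 member was called lower, and 13 to 18 without each of the other libraries. IFIT1, which binds foreign RNA, was at 102 and 89.3 CPM in KO LPS libraries and 174, 173 and 175 CPM in KO libraries, against 15.2 and 15.4 CPM in WT LPS libraries and 64.7, 72.6 and 44.8 CPM in WT libraries. All KO levels lay above the WT levels of the same condition. Responses of -0.86 ± 0.17 in KO cells and -1.98 ± 0.20 in WT cells differed by 1.12 ± 0.26 (adjusted p = 0.0259). With no filter, 1 member was called lower. IFIT1 was not called without KO replicate 1 or any of the 4 LPS libraries. RSAD2, the antiviral enzyme viperin, had 43.3 and 42.3 CPM in KO LPS libraries and 51.8, 49.8 and 49.0 CPM in KO libraries, against 10.2 and 12.6 CPM in WT LPS libraries and 25.6, 33.6 and 22.5 CPM in WT libraries (difference 1.02 ± 0.19, adjusted p = 0.00347). OAS1, a sensor of double-stranded RNA, differed by 0.77 ± 0.12 (adjusted p = 0.000179), XAF1 by 1.14 ± 0.20 (adjusted p = 0.000557) and MX2, a GTPase that blocks viruses, by 1.04 ± 0.21 (adjusted p = 0.00991), the last not called without WT LPS replicate 2. Reads of such families may be shared between similar members.

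Guanylate-binding proteins attack the vacuoles of pathogens and respond to interferon gamma. Of 26 genes of that kind, 26.9% were called, against 12% of all genes tested (6.42% higher and 5.57% lower). A lower response was found for 5 (FCGR1A, GBP1, GBP2, APOL6 and WARS1, the last not called without KO LPS replicate 2). A higher one was found for 2 (IRF1 and SERPING1), and the median was -0.05. No member was called higher under DESeq2 (adjusted p = 0.0568 for IRF1 and 0.0711 for SERPING1) or with the 10 libraries (0.0536 and 0.0614), each of which called 7 lower. The 2 higher calls were also absent without KO replicate 2, WT LPS replicate 2 or KO LPS replicate 2. SERPING1 was also not called without WT replicate 1, WT replicate 2, KO replicate 1 or KO replicate 3, nor IRF1 without WT replicate 3. GBP1 was at 62.6 and 58.0 CPM in KO LPS libraries and 11.4, 12.1 and 11.8 CPM in KO libraries, against 138 and 131 CPM in WT LPS libraries and 8.65, 10.3 and 9.32 CPM in WT libraries. It was higher in KO cells without LPS and lower with it. It rose by 2.36 ± 0.08 in KO cells and 3.83 ± 0.08 in WT cells (difference -1.47 ± 0.12, adjusted p = 4.54e-08). FCGR1A, the high-affinity IgG receptor, whose reads may be shared with near-identical relatives, had 92.2 and 90.6 CPM in KO LPS libraries and 74.3, 71.6 and 69.9 CPM in KO libraries, against 82.4 and 92.8 CPM in WT LPS libraries and 29.8, 26.9 and 26.4 CPM in WT libraries (difference -1.32 ± 0.10, adjusted p = 1.85e-08).

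The windows of IFIT1 and GBP1 are shown as a pair that shares a motif while LPS lowered the one and raised the other. They lie at chr10:89392373-89392672 on the plus strand (IFIT1) and chr1:89065159-89065458 on the minus strand (GBP1), from RefSeq (GRCh38.p14), and capitals mark matches to the core of the interferon-stimulated response element, which is GAAA, any 2 bases, GAAA, on either strand.
IFIT1: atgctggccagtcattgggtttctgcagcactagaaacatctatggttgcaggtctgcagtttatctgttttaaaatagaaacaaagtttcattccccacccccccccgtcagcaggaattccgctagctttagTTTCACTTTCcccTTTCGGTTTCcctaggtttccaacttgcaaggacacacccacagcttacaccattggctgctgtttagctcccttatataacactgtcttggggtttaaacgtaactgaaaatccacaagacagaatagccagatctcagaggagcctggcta
GBP1: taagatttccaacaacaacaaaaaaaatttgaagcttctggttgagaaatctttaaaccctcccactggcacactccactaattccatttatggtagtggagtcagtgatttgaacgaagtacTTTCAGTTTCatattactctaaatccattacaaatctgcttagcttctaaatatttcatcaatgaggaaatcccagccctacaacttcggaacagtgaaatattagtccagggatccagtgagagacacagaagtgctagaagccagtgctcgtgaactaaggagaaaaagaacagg
The motif was in 250 of 8114 windows (3.08%), in 19 of 25 windows of the type I interferon list and in 6 of 12 windows of the guanylate-binding list. Among genes with a different response, 18 of 465 windows of genes induced less (3.87%) and 13 of 438 of genes repressed less (2.97%) held it.

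Immediate early genes are induced rapidly by growth factor or calcium signals. Of 26 tested members, 38.5% were called, against 12% of all genes tested. A higher response in KO cells was found for 8 (FOSB, NR4A1, EGR3, NR4A2, EGR2, EGR1, FOS and BTG2). A lower one was found for 2 (KLF4 and FOSL2), and the median difference was 0.32. Leaving out each library gave 6 to 8 higher calls, and the lower count was 1 without WT LPS replicate 1 and 4 with no filter. EGR1 was not called without WT LPS replicate 2 or KO LPS replicate 1. FOS was not called without these or KO LPS replicate 2, nor FOSL2 without WT LPS replicate 1 or 2. FOSB, an AP-1 subunit, had 2.32 and 2.05 CPM in KO LPS libraries and 2.97, 2.07 and 1.77 CPM in KO libraries, against 2.33 and 1.81 CPM in WT LPS libraries and 11.2, 13.3 and 9.68 CPM in WT libraries. Only the WT libraries without LPS stood apart, the response was -0.03 ± 0.27 in KO cells and -2.46 ± 0.22 in WT cells, and the difference of 2.43 ± 0.36 (adjusted p = 0.000101) was the largest of the named genes repressed less. NR4A1, an orphan nuclear receptor that limits macrophage inflammation in mice, was at 9.54 and 9.03 CPM in KO LPS libraries and 6.97, 6.49 and 6.61 CPM in KO libraries, against 10.8 and 10.1 CPM in WT LPS libraries and 23.0, 23.2 and 20.5 CPM in WT libraries. It rose by 0.48 ± 0.13 in KO cells (adjusted p = 0.00496) and fell by 1.10 on the log2 scale in WT cells (SE 0.12, adjusted p = 3.37e-08), a difference of 1.57 ± 0.17 (adjusted p = 3.27e-06). EGR3, a zinc-finger factor, was at 19.9 and 21.5 CPM in KO LPS libraries and 24.2, 22.5 and 18.5 CPM in KO libraries, against 11.7 and 12.3 CPM in WT LPS libraries and 32.5, 37.3 and 31.2 CPM in WT libraries (difference 1.42 ± 0.16, adjusted p = 4.37e-06). KLF4, a zinc-finger factor that also marks monocytes, had an uncalled response in KO cells (0.13 ± 0.15, adjusted p = 0.508) and rose in WT cells (1.53 ± 0.16, adjusted p = 7.46e-08).

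Of 25 homeostatic microglial genes, 36% were called, against 12% of all genes tested. A higher response in KO cells was found for 8 and a lower one for 1 (TGFBR1). The median difference was 0.30, from median responses of -0.42 in KO cells and -0.82 in WT cells. Among all tested genes with a mean response from -1 to -0.5 the median difference was 0.34. The higher count was 4 without KO replicate 1 or KO LPS replicate 2, and 5 without WT replicate 3, KO replicate 3 or WT LPS replicate 2. TGFBR1 was not called under library size alone (adjusted p = 0.0587), nor without any 1 of 6 libraries (WT replicate 2, WT replicate 3, KO replicate 1, KO replicate 3, WT LPS replicate 2 or KO LPS replicate 2). SLCO2B1, an organic anion transporter used as a microglial marker, was at 453 and 478 CPM in KO LPS libraries and 1191, 1241 and 1228 CPM in KO libraries, against 220 and 208 CPM in WT LPS libraries and 1009, 1042 and 1070 CPM in WT libraries. KO LPS libraries held more than WT LPS libraries by a wider margin than KO over WT. Responses of -1.39 ± 0.05 in KO cells and -2.28 ± 0.05 in WT cells differed by 0.89 ± 0.07 (adjusted p = 3.14e-08). ITGAM, the CD11b subunit of complement receptor 3, differed by 0.62 ± 0.07 (adjusted p = 4.19e-06). TREM2, a lipid receptor whose variants alter the risk of Alzheimer's disease, was at 166 and 191 CPM in KO LPS libraries and 308, 318 and 312 CPM in KO libraries, against 116 and 97.2 CPM in WT LPS libraries and 271, 257 and 265 CPM in WT libraries (difference 0.51 ± 0.10, adjusted p = 0.0013). P2RY12 fell in both genotypes, by log2 changes of -2.64 ± 0.18 in KO cells and -3.05 ± 0.18 in WT cells, with an uncalled difference of 0.41 ± 0.29 (adjusted p = 0.391). CX3CR1, the fractalkine receptor, was called at 0.30 ± 0.09 (adjusted p = 0.0374) and lost the call under DESeq2, with no filter, with the 10 libraries and without any 1 of 8 libraries, that is all but WT replicate 2 and WT LPS replicate 2.

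Disease-associated microglial genes, named for mouse models of neurodegeneration, split evenly, with 5 of 24 higher and 5 lower and a median of 0.22. Calls made up 41.7% of the list, against 12% of all genes tested. Higher calls numbered 8 under library size alone or without WT LPS replicate 1 or KO LPS replicate 1, and the lower count was 2 without WT replicate 2 and 3 without KO replicate 2, KO replicate 3 or WT LPS replicate 1. SPP1, the secreted phosphoprotein osteopontin, was at 15859 and 14923 CPM in KO LPS libraries and 9603, 9335 and 9005 CPM in KO libraries, against 8405 and 7848 CPM in WT LPS libraries and 2640, 2905 and 2296 CPM in WT libraries. Every KO library without LPS lay above every WT LPS library, and the rise was 0.72 ± 0.08 in KO cells and 1.64 ± 0.08 in WT cells (difference -0.91 ± 0.11, adjusted p = 0.000322). Lipoprotein lipase, LPL, rose less in KO cells (-0.90 ± 0.07, adjusted p = 4.39e-08), whereas AXL, a receptor for the clearance of dying cells, fell less (0.82 ± 0.08, adjusted p = 9.15e-07). PLIN2, a coat protein of lipid droplets, rose in KO cells (0.30 ± 0.06) and fell in WT cells (-0.29 ± 0.06).

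Enzymes of itaconate, kynurenine, prostaglandin and NAD metabolism held calls in both directions, with 6 of 28 higher, 9 lower and a median of -0.15. Calls made up 53.6% of the list, against 12% of all genes tested. PLA2G4A, the phospholipase that frees arachidonic acid, was at 53.3 and 46.7 CPM in KO LPS libraries and 43.6, 40.0 and 40.7 CPM in KO libraries, against 84.1 and 86.7 CPM in WT LPS libraries and 38.1, 32.7 and 33.5 CPM in WT libraries. The rise in KO cells was small (0.27 ± 0.08) beside that in WT cells (1.30 ± 0.08), and the difference was -1.03 ± 0.11 (adjusted p = 2.22e-06). GCH1, the first enzyme of tetrahydrobiopterin synthesis, differed by -0.79 ± 0.11 (adjusted p = 6.89e-05) and TDO2, a tryptophan dioxygenase, by -1.26 ± 0.23 (adjusted p = 0.00099). QPRT, which makes the NAD precursor from quinolinate, was repressed less (0.80 ± 0.11, adjusted p = 2.67e-05). ACOD1, the itaconate synthase, and IDO1, a tryptophan dioxygenase of inflammation, had negative values that were not called (adjusted p = 0.519 and 0.178).

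In the glycolysis and HIF list 25% were called, against 12% of all genes tested (6.42% higher and 5.57% lower). A higher response was found for 3 of 36 members and a lower one for 6, with a median of -0.01. The lower ones included HIF1A, the oxygen-regulated transcription factor (-0.63 ± 0.08, adjusted p = 9.48e-06), and LDHA, lactate dehydrogenase A (-0.60 ± 0.07, adjusted p = 5.77e-06). In the ATF4 stress response list (30.8% called) 6 of 26 had a lower response, 2 a higher one, and the median was -0.15. DESeq2, the 10 libraries and leaving out any library other than WT LPS replicate 1 or KO LPS replicate 1 gave 1 higher call. ASNS, asparagine synthetase, was at 20.8 and 22.6 CPM in KO LPS libraries and 11.1, 11.1 and 9.89 CPM in KO libraries, against 53.8 and 54.4 CPM in WT LPS libraries and 14.3, 13.4 and 13.7 CPM in WT libraries (difference -0.94 ± 0.14, adjusted p = 8.73e-05). Of 15 heat shock and dissociation genes, 6 (40%, against 5.57% of all genes tested) had a lower response and none a higher one. The median was -0.18, and the 6 included the chaperone HSP90AA1 (-0.48 ± 0.08, adjusted p = 0.000191).

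Of 35 G1/S and replication genes, 11 (31.4%, against 6.42% of all genes tested) had a higher response and none a lower one. All 11 were genes repressed less. The list had a median difference of 0.11, from median responses of -0.50 in KO cells and -0.63 in WT cells. Among all tested genes with a mean response from -1 to -0.5 the median difference was larger, at 0.34. The count of higher responses in the list was 6 without WT replicate 2, KO replicate 1, WT LPS replicate 2 or KO LPS replicate 2. MCM2, a subunit of the replicative helicase, was at 31.4 and 30.4 CPM in KO LPS libraries and 57.9, 57.9 and 55.7 CPM in KO libraries, against 23.4 and 21.1 CPM in WT LPS libraries and 63.1, 63.7 and 66.1 CPM in WT libraries. KO cells were lower without LPS and higher with it. Responses differed by 0.65 ± 0.11 (adjusted p = 0.000403). E2F1, a transcription factor of S phase entry, differed by 0.68 ± 0.15 (adjusted p = 0.00508). None of 34 G2/M genes was called by edgeR, with 2 at an unadjusted p under 0.05, 0 called by DESeq2 and a median of -0.03. Without WT LPS replicate 2, 2 of them were called higher, and 1 without WT LPS replicate 1. With the 10 libraries, or without WT replicate 1 or KO LPS replicate 1, 1 was called lower.

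NPC1, which exports cholesterol from lysosomes, was at 223 and 231 CPM in KO LPS libraries and 151, 152 and 150 CPM in KO libraries, against 154 and 164 CPM in WT LPS libraries and 151, 148 and 149 CPM in WT libraries. The KO LPS libraries alone stood apart, and the difference was 0.49 ± 0.07 (adjusted p = 0.000108). NR1H3, the sterol-sensing nuclear receptor LXR alpha, differed by 0.53 ± 0.09 (adjusted p = 0.000469) and INSIG1, a brake on cholesterol synthesis, by 0.44 ± 0.07 (adjusted p = 0.000341). In the LXR and lipid efflux list, which holds NR1H3, 38.9% were called, against 12% of all genes tested. A higher response was found for 4 of 18 and a lower one for 3, among them CD36 (-0.79 ± 0.09) and LPL. In the cholesterol and fatty acid synthesis list (38.7% called) 8 of 31 had a higher response and 4 a lower one, with a median of 0.17. Among the lower ones were STARD4 (-0.43 ± 0.09) and MSMO1 (-0.38 ± 0.08). The higher count was 5 under DESeq2 and 4 with the 10 libraries, which called 4 lower. It was 3 without WT replicate 3, 4 without KO replicate 1, WT LPS replicate 2 or KO LPS replicate 2, and 5 without WT replicate 2 or KO replicate 3. C3, the central complement protein, rose more in KO cells (0.64 ± 0.04 in KO cells and 0.18 ± 0.04 in WT cells, difference 0.45 ± 0.06, adjusted p = 4.7e-05). In the complement list (33.3% called) 5 of 21 had a higher response, 3 under DESeq2 or with the 10 libraries. The 2 lower ones were CD55 (-0.38 ± 0.11), not called without any 1 of 4 libraries, and CD59 (-0.26 ± 0.08), not called without any 1 of 6.

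Of 18 MHC class II genes, 2 had a higher response and 2 a lower one, with a median of 0.03. Calls made up 22.2% of the list, against 12% of all genes tested (6.42% higher and 5.57% lower). The higher calls were HLA-DMB, which was not called without KO LPS replicate 1, and HLA-DOA, which was not called without KO LPS replicate 2. The lower calls were HLA-DRA (-0.34 ± 0.07, adjusted p = 0.0045) and HLA-DQA1 (-0.45 ± 0.10, adjusted p = 0.00447), both kept when each library was left out. HLA-DRA rose by 0.57 ± 0.05 in KO cells and 0.90 ± 0.05 in WT cells. HLA-DQA1 rose by 0.86 ± 0.07 in KO cells and 1.30 ± 0.07 in WT cells. Both genes were lower in KO cells with and without LPS. CIITA, the activator of class II genes, was at 13.5 and 13.8 CPM in KO LPS libraries and 37.7, 40.5 and 39.8 CPM in KO libraries, against 62.7 and 59.9 CPM in WT LPS libraries and 151, 172 and 163 CPM in WT libraries. It was lower in KO cells under both conditions, by log2 differences of -2.17 with LPS and -2.04 without it. The difference of the responses was -0.12 ± 0.11 (adjusted p = 0.499). Of the 5 CD1 genes, which present lipids, CD1C, CD1E and CD1A fell less in KO cells (0.64 ± 0.10, 0.48 ± 0.12 and 0.41 ± 0.13). These 3 calls were 60% of the list, whose median responses were -1.10 in KO cells and -1.51 in WT cells. Among all tested genes with a mean response from -2 to -1 the median difference was 0.54. A single one of the 3 calls was left without KO LPS replicate 1. CD1A was not called under DESeq2 (adjusted p = 0.117), with no filter or with the 10 libraries. It was not called either without any 1 of 8 libraries (all but KO replicate 1 and KO LPS replicate 2).

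**Figure D4:**
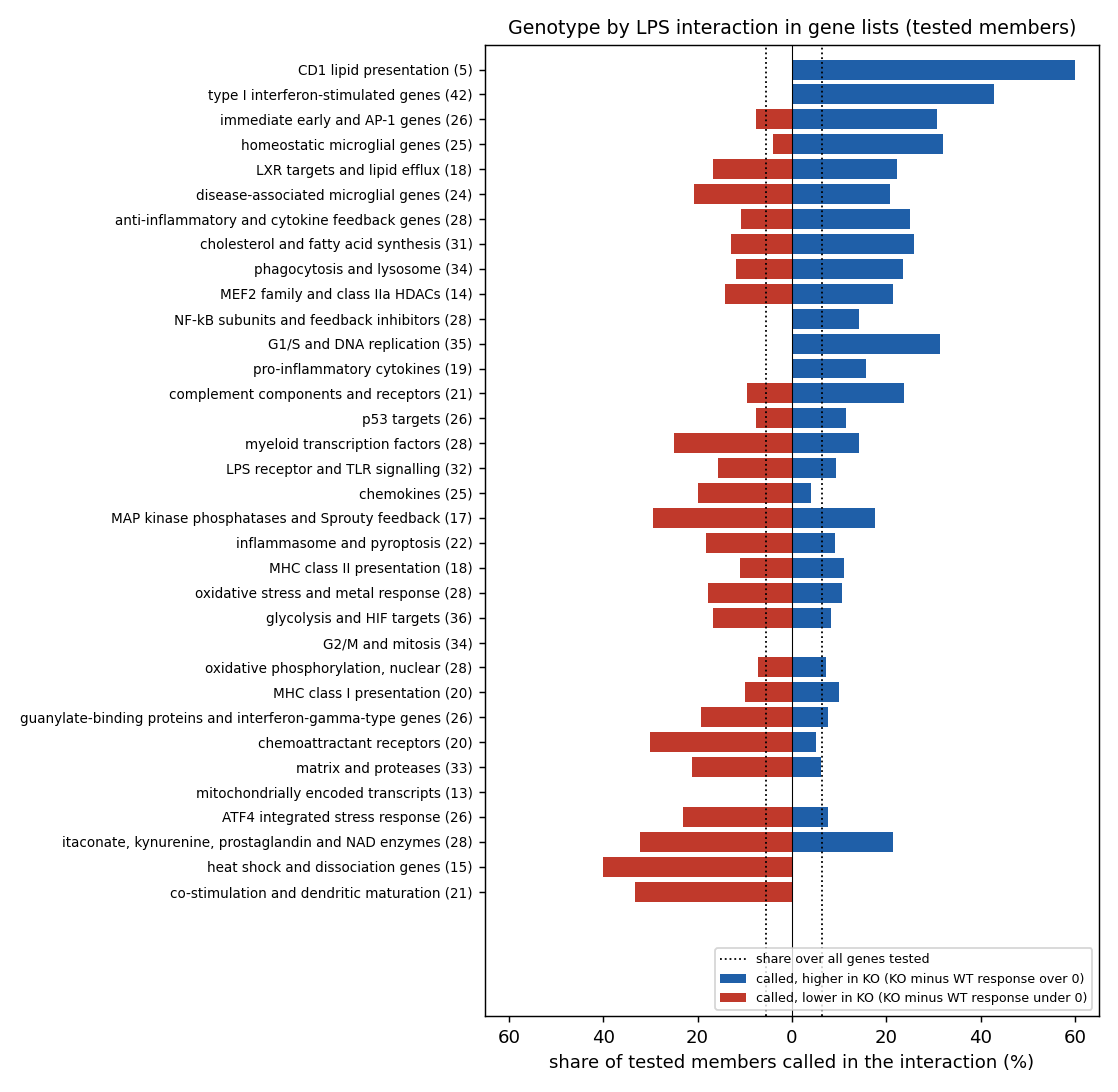
Share of the tested members of each of 34 gene lists called in the interaction (percent, number tested in brackets), with calls higher in KO cells to the right of 0, calls lower in KO cells to the left, and dotted lines for the shares over all genes tested (6.42% higher and 5.57% lower). Type I interferon-stimulated genes (18 of 42) and G1/S genes (11 of 35) were called on the right only, co-stimulation genes (7 of 21) and heat shock genes (6 of 15) on the left only, and G2/M genes (34 tested) not at all.

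The 37 genes with opposite responses comprised 25 that rose in KO cells and fell in WT cells and 12 that fell in KO cells and rose in WT cells. Besides NR4A1, EGR2 rose in KO cells (0.50 ± 0.10) and fell in WT cells (-0.48 ± 0.10), with 58.2 and 55.0 CPM in KO LPS libraries and 39.9, 40.9 and 39.5 CPM in KO libraries, against 35.4 and 25.6 CPM in WT LPS libraries and 46.2, 42.6 and 38.8 CPM in WT libraries. PRXL2B, a prostaglandin synthase, differed by 1.01 ± 0.15 (adjusted p = 0.000191), and PPP1R13L, an inhibitor of p53, by 1.25 ± 0.30 (adjusted p = 0.0087). HDAC9, a class IIa histone deacetylase that binds MEF2 factors and represses their targets, was at 8.06 and 7.11 CPM in KO LPS libraries and 5.49, 5.65 and 5.64 CPM in KO libraries, against 11.8 and 13.4 CPM in WT LPS libraries and 18.6, 16.3 and 17.1 CPM in WT libraries. KO cells were lower under both conditions. Responses of 0.44 ± 0.14 in KO cells and -0.46 ± 0.12 in WT cells differed by 0.90 ± 0.18 (adjusted p = 0.00216). In the other direction, SCN9A, a voltage-gated sodium channel, was at 6.77 and 6.29 CPM in KO LPS libraries and 8.32, 7.77 and 8.71 CPM in KO libraries, against 22.1 and 24.4 CPM in WT LPS libraries and 10.2, 11.2 and 11.8 CPM in WT libraries. It fell in KO cells (-0.34 ± 0.13, adjusted p = 0.0439) and rose in WT cells (1.07 ± 0.11, adjusted p = 1.52e-08). CCR2, the receptor of CCL2, was at 32.5 and 27.8 CPM in KO LPS libraries and 39.4, 37.2 and 39.8 CPM in KO libraries, against 59.3 and 65.1 CPM in WT LPS libraries and 56.0, 49.1 and 55.4 CPM in WT libraries (difference -0.58 ± 0.12, adjusted p = 0.00246). MAF, a transcription factor of macrophages, fell in KO cells (-0.25 ± 0.06) and rose in WT cells (0.25 ± 0.06).

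Among genes repressed less with non-overlapping responses, at least 5 CPM in the highest group and at least 0.5 CPM in the lowest, the largest differences were those of FOSB, SHC3 (1.82 ± 0.40), KIF26B (1.78 ± 0.17), TGM5 (1.77 ± 0.30) and PRR15 (1.76 ± 0.39), which was not called without WT LPS replicate 2 or KO LPS replicate 2. KIF26B, a member of the kinesin family, was at 6.64 and 8.69 CPM in KO LPS libraries and 65.8, 70.7 and 67.1 CPM in KO libraries, against 5.05 and 4.38 CPM in WT LPS libraries and 139, 146 and 146 CPM in WT libraries. LPS brought it to low levels in both genotypes, by -3.15 ± 0.11 in KO cells and -4.93 ± 0.11 in WT cells. JAG1, a Notch ligand chosen after its values were seen for its low adjusted p, was at 58.9 and 54.1 CPM in KO LPS libraries and 62.4, 58.7 and 55.1 CPM in KO libraries, against 27.3 and 28.8 CPM in WT LPS libraries and 93.3, 88.5 and 85.0 CPM in WT libraries. Its level overlapped between KO LPS and KO libraries. Responses of -0.05 ± 0.07 in KO cells and -1.66 ± 0.08 in WT cells differed by 1.61 ± 0.11 (adjusted p = 2.56e-09).

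Repression was larger in KO cells for 32 genes. INPP4B, an inositol polyphosphate phosphatase, had 2.77 and 1.92 CPM in KO LPS libraries and 6.78, 6.82 and 6.66 CPM in KO libraries, against 3.06 and 4.44 CPM in WT LPS libraries and 5.35, 4.84 and 5.97 CPM in WT libraries. Its responses of -1.52 ± 0.21 in KO cells and -0.52 ± 0.19 in WT cells differed (adjusted p = 0.0266), but were not called different without WT replicate 2, KO replicate 1, WT LPS replicate 2 or KO LPS replicate 2. GALNT18, a glycosyltransferase, had a difference of -0.71 ± 0.23 (adjusted p = 0.0483) that was lost without any 1 of 9 libraries, that is all but KO LPS replicate 2. It was also lost under library size alone and with no filter. TGFBR1, the type I TGF-beta receptor, fell in KO cells (-0.26 ± 0.06, adjusted p = 0.00169), with a response of 0.05 ± 0.06 in WT cells (adjusted p = 0.547). The difference was not called under library size alone or without any 1 of 6 libraries.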

How the data were processed

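The authors deposited raw counts per gene for 57992 gene identifiers in 12 libraries. Per the labels' protocols, TRIzol was used for RNA and the NEBNext Ultra RNA kit for the libraries. CASAVA 1.7, Cufflinks and GRCh38 are named in the submitters' processing notes. Not given in the sources used here are the aligner, the read counter, the annotation and whether strand was used, so reads of overlapping, antisense or near-identical genes may be assigned to either gene. Symbols came from the gene name table for 56948 identifiers and from GENCODE 29 for 440 more, and 604 had none.

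Counts were scaled by TMM and tested with edgeR 4.0.16 in R 4.3.3 (robust quasi-likelihood F test, 1 mean per group over all 12 libraries, filterByExpr, Benjamini-Hochberg over 16022 genes, called at an adjusted p under 0.05, two-sided). A called gene was classed as induced or repressed when its called LPS responses had that sign, and as opposite when both were called with different signs. The non-overlap count used log2 CPM with a prior count of 2. Named genes were MEF2C, a panel of 10 LPS response and microglial genes, up to 2 called members in each direction per list with the lowest adjusted p, and the 5 called genes per class with the largest difference that had non-overlapping responses, at least 5 CPM in the highest and at least 0.5 CPM in the lowest of the 4 groups. Other genes named in the text were chosen after their values were seen. The comparison, the lists and the named genes were chosen with earlier results of these data known. Precision is limited by depth (13888283 to 17639136 counts) and by 2 or 3 libraries per group.

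Alternatives were DESeq2 1.42.0, library size alone, no filter on low counts, only the 10 libraries of the 4 groups, the replicate number as a block, a minimum fold of 1.5, an adjusted p under 0.01, and each library left out. The test was tried on simulated data with 200 changed genes among 16022. It found 43.3% of 67 genes at 1.5-fold, 76.1% of 67 at 2-fold and 92.4% of 66 at 4-fold. Of its 154 calls 13 (8.44%) were false, a share above the threshold of 0.05. In the data 1920 genes were called, far more than the 200 changed here, so these rates may not hold for the data. Promoter windows were RefSeq sequences.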

Additional observations from a re-analysis of the deposited data

Results flagged for a closer look

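The test of the difference itself found 1920 genes whose LPS response differed between KO and WT cells. They comprised 846 genes induced less in KO cells, 104 induced more, 896 repressed less, 32 repressed more, 37 with opposite responses and 5 in which neither response was called alone.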

How the results depend on the processing

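DESeq2 called 1858 genes, library size alone 1963, no filter 2290 and the 10 libraries of the 4 groups 1984, each within 1.5 times the 1920 reported. Genes repressed more numbered 60 under library size alone, 53 with no filter and 49 with the 10 libraries, against 32 reported. Genes with neither response called numbered 8 under DESeq2, 1 under library size alone and 15 with no filter, against 5 reported. Correlations of deviations from the group mean ran from -0.143 to 0.103 between same-numbered libraries and from -0.103 to 0.143 between differently numbered ones. In groups of 2 libraries the 2 deviations mirror each other, so these values cannot settle whether the numbers pair the samples. The replicate block called 1543 genes (820 higher and 723 lower), of which 1525 were shared, with 24 opposite and 2 neither. A minimum fold of 1.5 called 82 genes (26 higher and 56 lower), with 55 induced less, 2 induced more, 23 repressed less, 0 repressed more, 2 opposite and 0 neither. An adjusted p under 0.01 called 962 genes (479 higher and 483 lower), with 465 induced less, 56 induced more, 415 repressed less, 13 repressed more, 10 opposite and 3 neither. Leaving out each library gave 1162 to 3079 called genes, 594 to 1648 higher, 568 to 1431 lower, 542 to 1287 induced less, 70 to 250 induced more, 513 to 1319 repressed less, 17 to 114 repressed more, 17 to 78 opposite and 0 to 31 neither. The share of called genes with a smaller response in KO cells was 84.6% to 91.3% over these omissions. The cause of these shifts was not tested. Of the 146 called genes that the naming rule gave, none changed sign, but the call was lost for 10 under DESeq2, 5 under library size alone, 5 with no filter, 9 with the 10 libraries, 12 with the block, 117 at a minimum fold of 1.5, 31 at an adjusted p under 0.01, 29 without WT LPS replicate 2, 28 without KO LPS replicate 2 and 8 to 19 without each other library. The block ended the calls of CX3CR1, TGFBR1, GALNT18, SLAMF7, S100A12, TLR1, TBK1, IRAK1 and CD1A. It left 5 homeostatic genes higher against 8 and 3 Toll-like receptor pathway genes lower against 5, and left 1 higher call in the ATF4 list and 1 in the matrix list against 2 in each. Having 2 LPS libraries per genotype limits the precision of each response.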
